A study of Mus musculus with 8 samples.

Results

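The 76 nuclear genes of mitochondrial ribosomal proteins were followed in CD8 T cells sorted from mouse liver. Members were all gene symbols in the count tables that begin with Mrpl or Mrps and a number and carry no pseudogene suffix, 76 of 22609 genes, with 47 named for the large (Mrpl) and 29 for the small (Mrps) subunit. Male C57BL/6J mice, 6 weeks old, had received an antibody against CD137 (αCD137), a costimulatory receptor of T cells, on days 0, 3 and 6, and their livers were collected at day 8. The sort kept live TCRβ+ CD8α+ cells that carried CD45 and lacked CD4, NK1.1 and MHCII, and took the KLRG1+ CD127- cells among them, which were split by surface CD11c into 4 CD11c+ and 4 CD11c- libraries. All libraries came from antibody-treated mice, and whether the 4 libraries of a subset came from separate mice is not stated, so the p-values reflect variation among these libraries alone, and that variation could be technical.

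Mitochondria translate the few proteins encoded by their own DNA on a dedicated ribosome, the mitoribosome. Its ribosomal RNAs come from mitochondrial DNA, while all of its proteins are encoded in the nucleus, made in the cytosol and imported. The small subunit holds the mRNA and decodes it, and the large subunit joins the amino acids and releases the chain at the inner membrane, where it enters the oxidative phosphorylation complexes. Activated T cells are known to enlarge their mitochondria and to depend on mitochondrial translation for sustained effector function.

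Libraries held 5090345 to 7093163 gene reads. CD11c+ replicates 1 and 2 and CD11c- replicate 1 had the fewest genes with a read (10482, 10892 and 10783, against 11533 to 12581 in the other libraries), and results are given with and without them where they matter. The gene of the sorted protein, Itgax, was at 198 to 357 CPM in CD11c+ libraries and averaged 10.1 CPM in CD11c- libraries, where CPM is the read count scaled to a common library size with TMM factors. The 7 CD8 T cell markers summed to 8042 to 9624 CPM in CD11c+ and 8167 to 8893 in CD11c- libraries, and each averaged at least 494 CPM. The 5 hepatocyte markers summed to at most 5.94 CPM in any library, and the 4 B cell markers to at most 14.4. Markers of neutrophils (2 matched), monocytes and Kupffer cells (5) and NK cells (4) reached 256, 363 and 80.4 CPM in CD11c+ replicate 3, which was the highest library for each and also for the CD8 T cell and dendritic cell markers. Their ranges were 2.27 to 256, 92.4 to 363 and 11.5 to 80.4 CPM in CD11c+ and 6.16 to 93.7, 94.7 to 201 and 6.31 to 37.2 in CD11c- libraries, and their part in the values below was not tested. Most of the NK cell sum in CD11c+ replicate 3 came from Tyrobp (55.2 CPM) and Fcer1g (22.6). Ncr1 was at 1.78 CPM and Klrb1c at 0.713 in that library, and Klrb1c was highest in CD11c+ replicate 1 (8.99). The 5 dendritic cell markers, a type that also carries CD11c, summed to 33.4 to 79.6 CPM in CD11c+ and 10.5 to 42.8 in CD11c- libraries, mostly from H2-Ab1, with Flt3 at 0 in all but CD11c+ replicate 3. The 3 liver endothelial markers summed to 17.8 to 28.1 and 24.7 to 38.1 CPM, almost all from Pecam1. Stab2 and Clec4g were at 0.18 CPM or less in every library. No marker gene was at 0 in all 8 libraries. Of the 35 marker genes 18 passed the filter on low counts and were tested between subsets, among them all 7 of CD8 T cells and 0 of hepatocytes, and 0 of these 18 passed.

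Mitochondrial ribosomal protein genes were expressed in every library and were at similar levels in the subsets. Together they took 0.462%, 0.470%, 0.545% and 0.520% of gene reads in CD11c+ replicates 1 to 4 and 0.522%, 0.507%, 0.470% and 0.558% in CD11c- replicates 1 to 4. The 2 sets of libraries overlapped over nearly their whole range, at 0.499% ± 0.0398 and 0.514% ± 0.0363 (SD, n = 4 each). Of the 76 members, 75 or 76 had at least 1 read in each library. In total 74 passed the filter on low counts, with 421 to 7805 reads each over the 8 libraries, and 2 did not.

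The 2 members under the filter were Mrpl23 and Mrps36. Mrpl23, a large subunit protein next to the exit of the peptide tunnel, had 10 reads in all, with 0 to 2 per CD11c+ library and 0 to 4 per CD11c- library. Mrps36 had 45 reads, 3 to 8 per library in either subset. Despite its name, Mrps36 is now known as a part of the 2-oxoglutarate dehydrogenase complex rather than of the mitoribosome. GENCODE vM21 lists 5 pseudogenes named after members, 3 of Mrps36, 1 of Mrpl23 and 1 of Mrpl48, which are the 3 members that have any. Per kilobase of transcript these 3 were among the 4 lowest members, at 0.308 (Mrpl23), 1.41 (Mrps36) and 5.79 CPM per kb (Mrpl48), with Mrpl47 at 4.58. For Mrpl48 this place depended on its transcript length of 4285 bases, against a median of 1284 over all members. Without division by length Mrpl48 averaged 24.8 CPM, above Mrps10, Mrps18b, Mrpl47, Mrpl22, Mrps31 and Mrps33, which have no named pseudogene. Reads that align to more than 1 place were not assigned to genes, and the part of the pseudogenes in these levels was not tested.

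Per length of the principal transcript, the median level was 44.7 CPM per kb over all 76 members, 46.5 over the large and 35.1 over the small subunit. Lengths are those of GENCODE vM21, while the annotation used for counting is not given in the sources used here, so these levels are approximate. The highest were Mrpl33 (295 CPM per kb ± 57.7, SD, n = 8) and Mrpl52 (255), and of the 10 highest members 8 belonged to the large subunit. Mrps24, the counterpart of the bacterial protein at the mRNA entry channel, led the small subunit at 158 ± 24.5 CPM per kb, a level within the spread of Mrpl54 (164). The 43 members with a bacterial counterpart had a median of 52.0 CPM per kb and the 33 without one a median of 30.8. No test was made between these sets, as they were described by their levels alone.

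**Figure D1:**
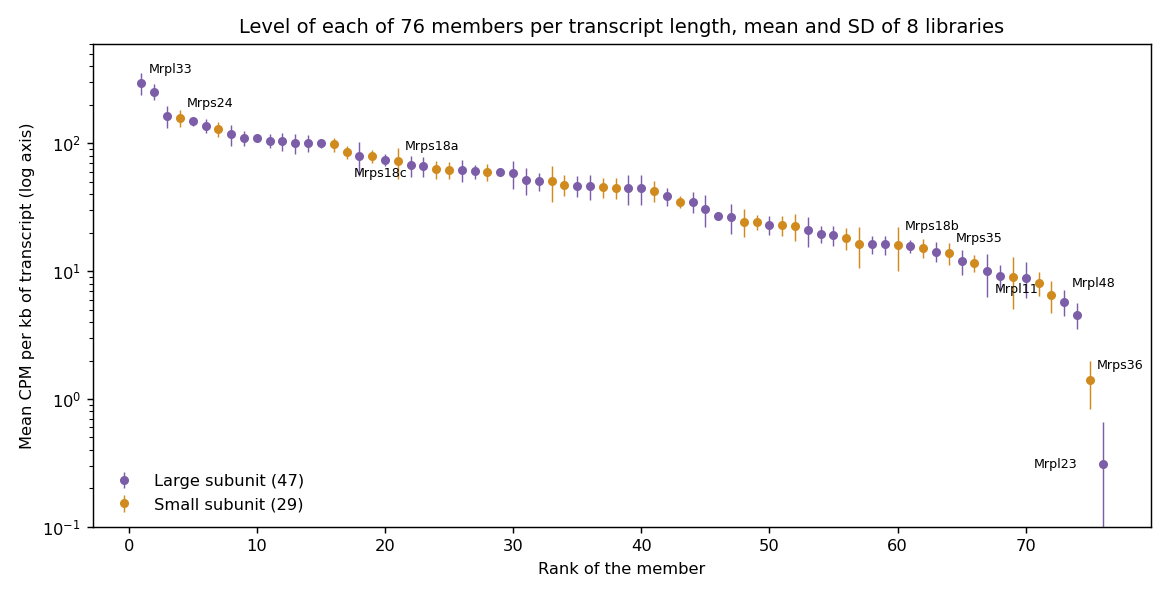
Mean level of each of the 76 members in CPM per kb of transcript (log axis, bars show the SD over 8 libraries) by rank, coloured by subunit. The bar of Mrpl23 runs below the axis, and Mrpl23 and Mrps36 lie apart at 0.308 and 1.41 CPM per kb.

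Promoters were read from RefSeq windows of 300 bases (250 before to 50 after the transcript start, build GRCm38.p6) and searched on both strands for letters of factors known to act on genes for mitochondria and growth. These were GCGCATGC for NRF1, CCGGAAGT for ETS factors such as GABP, AAGATGGCG for YY1 and CACGTG for the E-box that MYC can bind. None of these strings contains another. Windows were found for 67 members (73 windows), and none for Mrpl4, Mrpl13, Mrpl15, Mrpl19, Mrpl38, Mrpl54, Mrps28, Mrps34 and Mrps35. Shown here are the windows of the members of lowest p with a window in each subunit, Mrps2 and Mrpl44, and of Mrpl33, Mrps27 and Mrps18c, the 3 members named by rule that hold matches to 2 of the strings, which were chosen after the search. Mrpl36 and Mrpl37 also hold matches to 2 strings, the E-box and the YY1 string in both, and are not shown. The windows are at chr2:28467816-28468115 on the plus strand (Mrps2), chr1:79775768-79776067 on the plus strand (Mrpl44), chr5:31613701-31614000 on the plus strand (Mrpl33), chr13:99344536-99344835 on the plus strand (Mrps27) and chr5:100798509-100798808 on the plus strand (Mrps18c). Capitals mark the matches.
Mrps2: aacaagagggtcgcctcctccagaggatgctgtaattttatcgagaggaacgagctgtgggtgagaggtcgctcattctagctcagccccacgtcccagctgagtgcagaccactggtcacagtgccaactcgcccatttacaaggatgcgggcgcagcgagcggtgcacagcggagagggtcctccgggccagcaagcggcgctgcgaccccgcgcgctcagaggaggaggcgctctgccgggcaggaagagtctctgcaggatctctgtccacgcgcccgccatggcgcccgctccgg
Mrpl44: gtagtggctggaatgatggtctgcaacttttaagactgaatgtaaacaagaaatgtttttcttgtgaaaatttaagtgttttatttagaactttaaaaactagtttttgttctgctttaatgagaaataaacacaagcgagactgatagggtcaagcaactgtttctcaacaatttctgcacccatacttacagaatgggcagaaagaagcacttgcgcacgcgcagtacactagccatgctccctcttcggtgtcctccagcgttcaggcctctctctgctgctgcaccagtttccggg
Mrpl33: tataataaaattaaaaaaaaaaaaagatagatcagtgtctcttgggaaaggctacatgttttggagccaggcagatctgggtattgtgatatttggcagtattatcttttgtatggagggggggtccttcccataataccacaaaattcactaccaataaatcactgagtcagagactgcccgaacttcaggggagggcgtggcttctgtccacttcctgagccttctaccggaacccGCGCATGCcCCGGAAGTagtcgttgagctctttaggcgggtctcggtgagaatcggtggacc
Mrps27: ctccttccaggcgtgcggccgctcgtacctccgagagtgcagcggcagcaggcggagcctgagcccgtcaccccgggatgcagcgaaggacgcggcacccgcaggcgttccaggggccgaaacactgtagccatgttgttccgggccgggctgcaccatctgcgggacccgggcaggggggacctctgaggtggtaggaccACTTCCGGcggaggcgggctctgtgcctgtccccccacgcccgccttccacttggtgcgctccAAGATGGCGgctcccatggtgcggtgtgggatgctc
Mrps18c: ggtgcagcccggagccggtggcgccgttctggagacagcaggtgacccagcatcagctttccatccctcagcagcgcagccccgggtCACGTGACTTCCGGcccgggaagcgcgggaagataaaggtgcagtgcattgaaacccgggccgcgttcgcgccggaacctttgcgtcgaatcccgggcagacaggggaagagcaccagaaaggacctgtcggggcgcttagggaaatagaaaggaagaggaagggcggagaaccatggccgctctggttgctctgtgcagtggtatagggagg

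The Mrpl33 window holds the NRF1 string from base -12 and the ETS string from base -3, and the Mrps27 window the ETS string from base -49 and the YY1 string from base 15 past the start. In the Mrps18c window the E-box from base -163 directly precedes the ETS string from base -157. The Mrps2 and Mrpl44 windows hold none of the 4 strings. Over the members' windows the ETS string was found in 16.4%, against 9.01% of 9205 windows of tested genes and 3.89% of all 32851 windows. The NRF1 string was in 11.0% of members' windows (5.77% of tested genes' and 2.71% of all), and the YY1 string also in 11.0% (3.41% and 1.40%). The E-box was in 9.59% (10.3% and 7.15%). Some genes have more than 1 window, and by gene the E-box was found for 5 of 67 members, 7.46%, against 12.2% of tested and 8.09% of all genes. By gene the members' shares of the other 3 strings stayed above those of tested and of all genes, with the ETS string at 17.9% (10.4% and 4.31%) and the NRF1 and YY1 strings at 11.9% each (6.73% and 3.05% for NRF1, 4.17% and 1.64% for YY1). In all, 28 of 67 members had at least 1 of the 4 strings and 39 had none. Among large subunit genes 7 of 41 had the NRF1 string (17.1%), and among small subunit genes 1 of 26 (Mrps18b, 3.85%), beside 6.73% of tested genes. The ETS string was found for 8 of 41 and 4 of 26, the YY1 string for 4 of 41 and 4 of 26, and the E-box for 4 of 41 and 1 of 26. No test was made between the subunits. A match is a description of the letters and was not tested as a binding site.

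A score was computed for each library as the mean log2 CPM over the 74 members that passed the filter. It was 5.63, 5.72, 5.95 and 5.93 in CD11c+ replicates 1 to 4 and 5.87, 5.87, 5.75 and 6.05 in CD11c- replicates 1 to 4. CD11c+ replicates 1 and 2 were the lowest, CD11c- replicate 4 was the highest, and the subsets overlapped. The mean difference, CD11c+ minus CD11c-, was -0.08 on the log2 scale, smaller than the SD within the subsets (0.16 and 0.12, n = 4 each). Leaving out the 3 libraries of lowest gene detection, it was 0.04. In bulk libraries such as these, fewer cells with a transcript and less transcript per cell cannot be told apart.

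**Figure D2:**
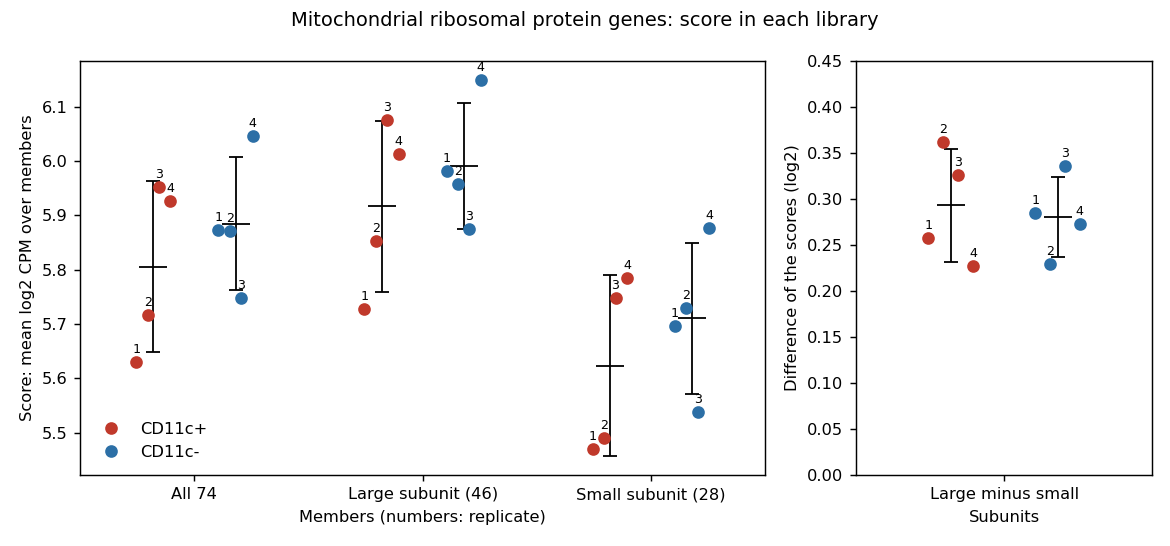
Score of each library (mean log2 CPM, points numbered by replicate, bars show mean and SD, n = 4) over all 74 tested members and over each subunit, with the difference of the 2 subunit scores on the right. The subsets overlap in every panel, and CD11c+ replicates 1 and 2 are lowest over all members.

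The scores of the large and small subunit had the same lowest and highest library. The large subunit score over 46 members was lowest in CD11c+ replicate 1 (5.73) and highest in CD11c- replicate 4 (6.15), as was the small subunit score over 28 members (5.47 and 5.88). Large minus small was 0.26, 0.36, 0.33 and 0.23 in CD11c+ replicates 1 to 4 and 0.28, 0.23, 0.34 and 0.27 in CD11c- replicates 1 to 4. Its means of 0.29 ± 0.062 and 0.28 ± 0.044 (SD, n = 4 each) differed by 0.01. Because both scores come from the same library, scaling between libraries nearly cancels in this value. In mammalian mitoribosomes the proteins of Mrps30 and Mrps18a sit in the large subunit, and assigning genes by place turned the sign of the difference between subsets, to -0.01, still below the spread between libraries. Of the summed CPM of all members, the large subunit took 66.5% ± 0.744 in CD11c+ and 65.7% ± 0.509 in CD11c- libraries.

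Members tended to be low or high in the same libraries. CD11c+ replicate 1 was the lowest of the 8 libraries for 22 of 74 members and CD11c+ replicate 2 for 19. Both belong to the 3 libraries of lowest gene detection, and over all tested genes they were lowest for 22.5% and 20.3%, against 29.7% and 25.7% of members. The other library of low detection, CD11c- replicate 1, was lowest for 13 of 74 members (17.6%) and 1816 of 10073 tested genes, and highest for 14 members, and its score lay near the mean. CD11c- replicate 4 was highest for 21 members, 28.4%, against 9.74% of all tested genes, and lay above the member's own mean for 64 of 74, 86.5%, against 54.5%. CD11c+ replicate 3 was highest for 18 members, 24.3%, against 15.7% of all tested genes. CD11c- replicate 3 lay above the member's own mean for only 18 members, 24.3%, against 54.6%. By the coefficient of variation over all 8 libraries the steadiest member was Mrpl41, with means of 46.1 ± 1.67 CPM in CD11c+ and 46.8 ± 3.90 CPM in CD11c- libraries and a coefficient of 6.03%. By the same measure the most variable tested member was Mrps31, at 43.7%, with 3.53 CPM in CD11c- replicate 1 and 22.3 in CD11c+ replicate 4. By the SD of log2 CPM within the subsets Mrpl40 came first (0.09, as for Mrpl41) and Mrpl11 last (0.86, as for Mrps31).

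**Figure D3:**
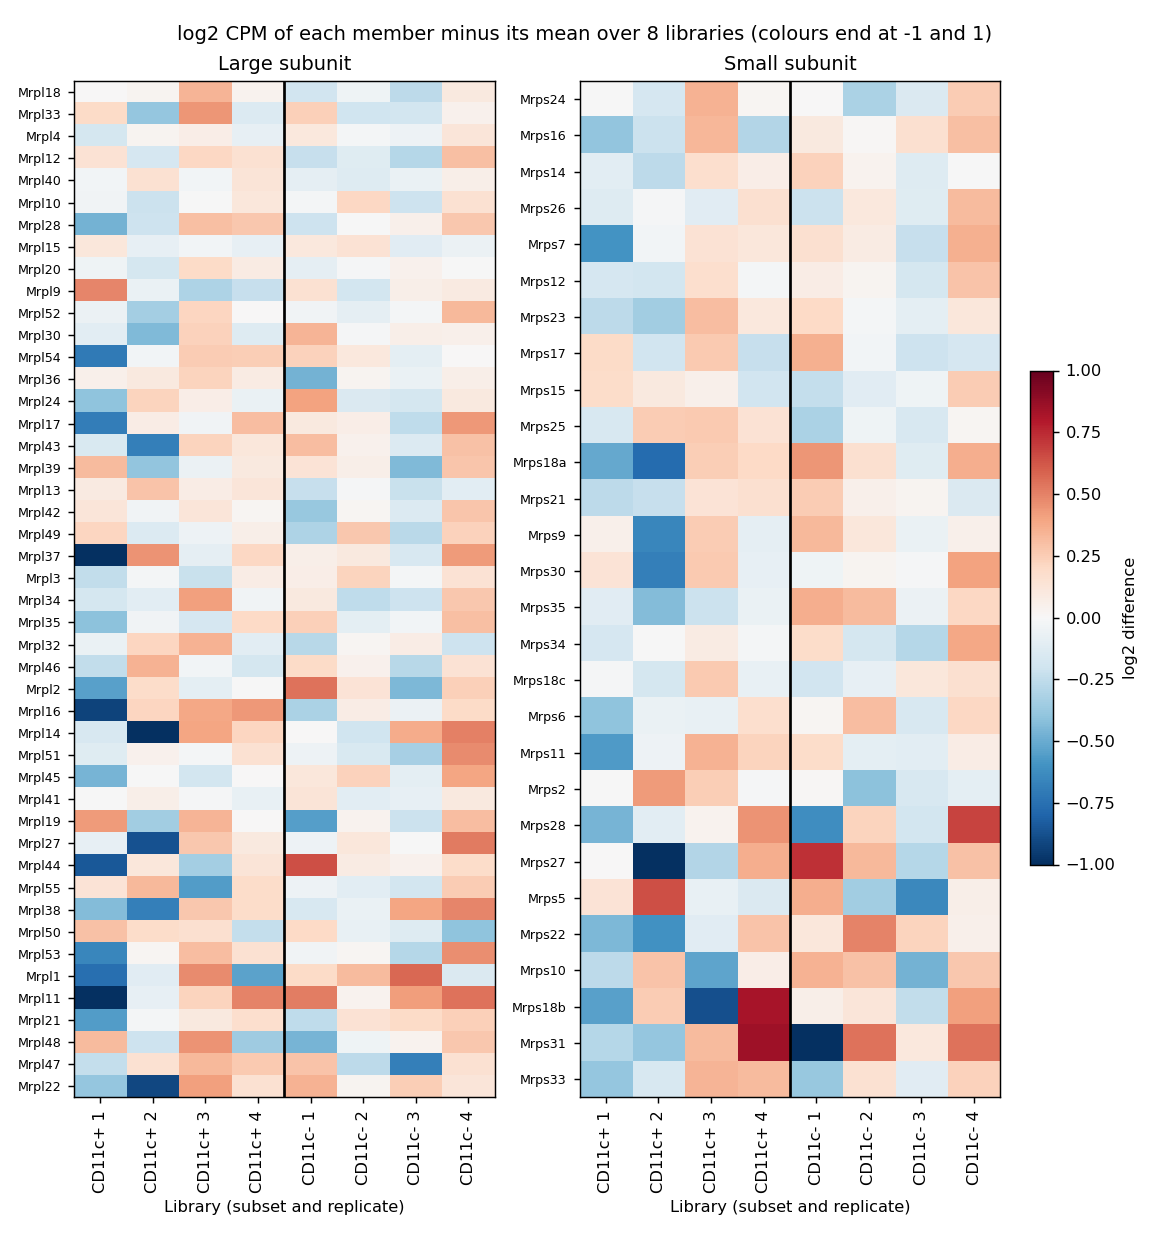
Each tested member's log2 CPM in each library minus its mean over the 8 libraries (blue lower, red higher, colours end at -1 and 1), members ordered by mean CPM within each subunit. CD11c+ 1 is the lowest library for 22 members and CD11c+ 2 for 19, and CD11c- 4 is above the member's mean for 64.

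No member passed the test between CD11c+ and CD11c- cells once p-values were adjusted over all genes. By edgeR's quasi-likelihood test 0 of 74 members had an adjusted p under 0.05, with adjusted p from 0.991 to 0.999, while 5 of 10073 tested genes (0.0496%) passed. An unadjusted p under 0.05 was found for 1 member, 0 higher and 1 lower, against 4.7% of all tested genes (2.43% higher and 2.26% lower), and Mrps35 is that member. DESeq2 and limma voom (run with library quality weights) each also called 0 members and had 1 with an unadjusted p under 0.05. With limma voom that member was not Mrps35, whose adjusted p of 0.927 was above the lowest among members, 0.924. Over all tested genes DESeq2 called 32 and had 549 with an unadjusted p under 0.05, and limma voom called 19 and had 536. Fold changes were small. Log2 fold changes of the 74 members ran from -0.48 to 0.33, with 27 positive and 47 negative and a median of -0.06, where all tested genes had a median of 0.01 with 51.7% positive and 48.3% negative values. Leaving out the 3 libraries of lowest gene detection, 44 of 74 were positive and the median was 0.02. That setting was chosen after seeing the data, and it removes CD11c+ replicates 1 and 2, the libraries of lowest member score. With any 1 library left out the median stayed negative, from -0.12 to -0.02. Limma voom gave a median of -0.005 with 36 of 74 positive.

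The intervals give, gene by gene, the range of fold changes that fits each member's values. They are not adjusted for the number of genes tested, so they do not give the smallest difference that the adjusted test could call. The 95% interval of the log2 fold change lay within a 2-fold change in either direction for 69 of 74 members (60.8% of all tested genes), and within a 1.5-fold change for 35 (29.3%). The median half-width of the interval was 0.43 on the log2 scale. The 5 members whose interval reached beyond 2-fold were Mrpl1, Mrpl11, Mrpl22, Mrps27 and Mrps31.

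**Figure D4:**
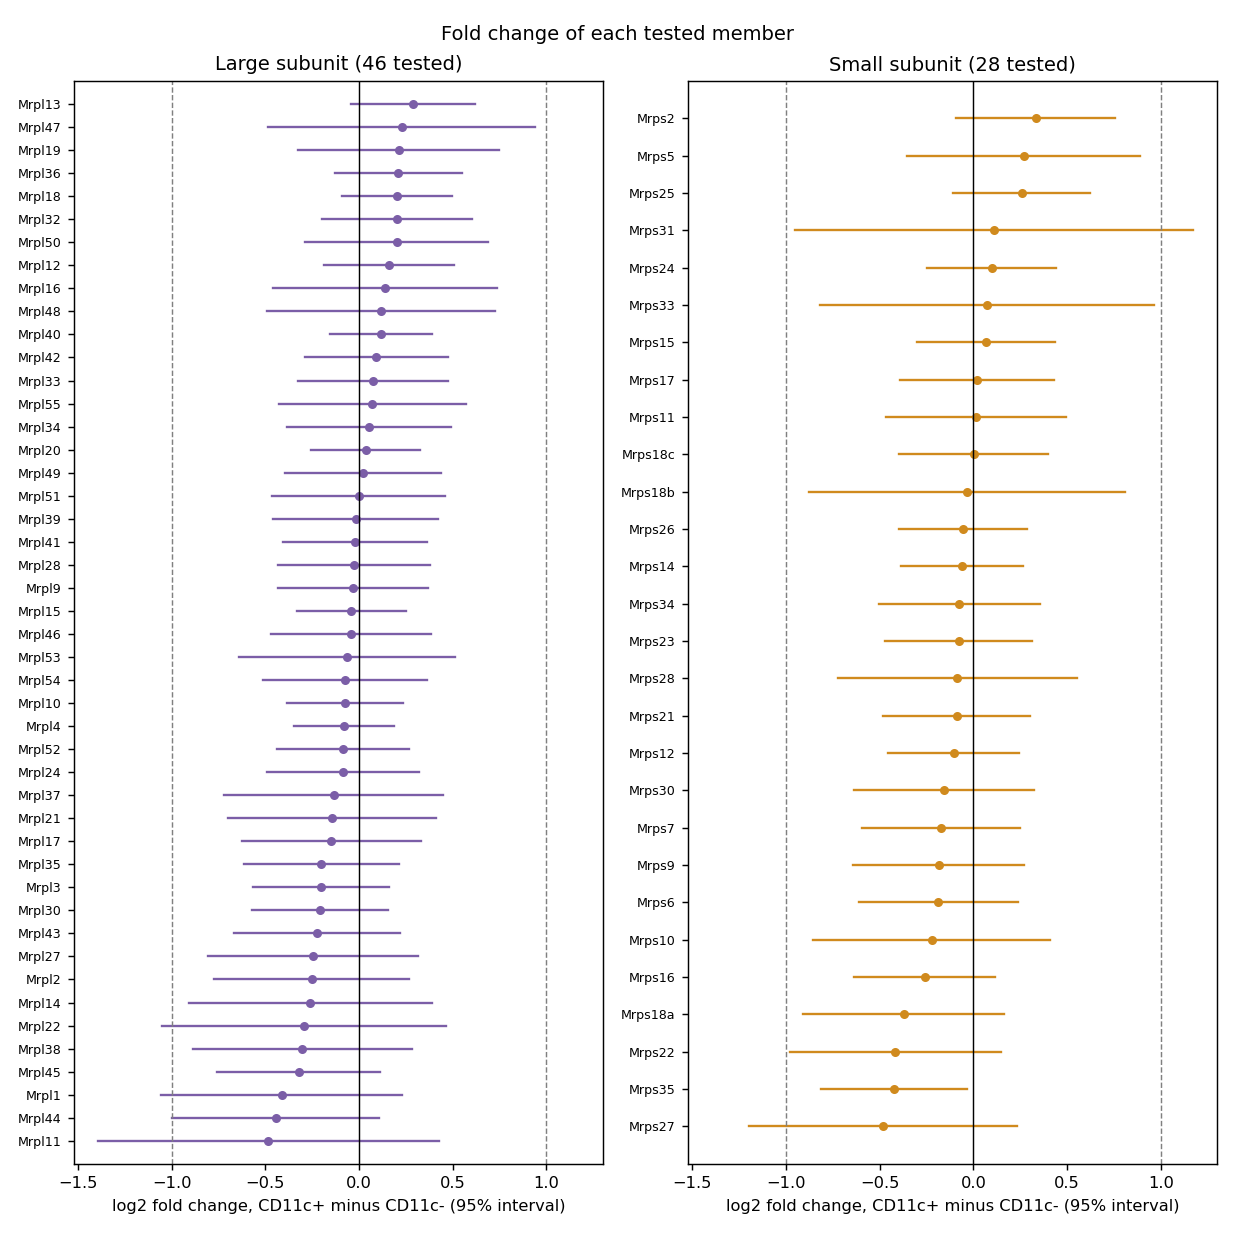
Log2 fold change of each tested member, CD11c+ minus CD11c-, with its 95% interval (dashed lines mark a 2-fold change). All intervals but that of Mrps35 cross 0, and 69 of 74 lie between the dashed lines.

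The member with the lowest p by edgeR was Mrps35, a small subunit protein found in mitochondria and not in bacteria. It was at 52.6, 42.1, 49.2 and 54.4 CPM in CD11c+ replicates 1 to 4 and at 73.5, 71.3, 54.9 and 65.9 CPM in CD11c- replicates 1 to 4. All 4 CD11c+ values lay below all 4 CD11c- values, with a gap of under 1 CPM between the nearest. The log2 fold change was -0.42 (SE 0.18, 95% interval -0.81 to -0.03, unadjusted p = 0.0361, adjusted p = 0.991). With 1 library left out, the log2 fold change of Mrps35 ran from -0.51 to -0.36, with adjusted p of at least 0.841 by edgeR. Over all 74 members, the count with an unadjusted p under 0.05 was 0 without CD11c+ replicate 2 or CD11c- replicate 1, 2 or 4. It was 2 without CD11c+ replicate 3 or 4, and 0 leaving out the 3 libraries of lowest gene detection.

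In the large subunit the lowest p belonged to Mrpl13, the counterpart of a bacterial core protein. Its levels were 78.4, 90.1, 77.5 and 80.3 CPM in CD11c+ and 62.8, 73.2, 63.2 and 68.4 CPM in CD11c- replicates 1 to 4. Every CD11c+ library was above every CD11c- library, and the log2 fold change was 0.29 (SE 0.15, 95% interval -0.04 to 0.62, adjusted p = 0.991). Mrpl13 and Mrps35, in opposite directions, were the only members of 74 whose subsets did not overlap, 1 higher (1.6% of all tested genes) and 1 lower (1.85%), or 2 of 74 against 3.44% of all tested genes in either direction.

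The extremes of the fold changes were members with wide spread. Mrpl11, which forms part of the site where translation factors bind, had the lowest value in the large subunit at -0.48 (SE 0.42, 95% interval -1.39 to 0.42). It was at 5.87, 25.5, 31.5 and 38.3 CPM in CD11c+ and 38.6, 27.7, 36.3 and 39.5 in CD11c- replicates 1 to 4, with CD11c+ replicate 1 far below the rest. Without that library the value was -0.16. Mrps27, a small subunit protein of the pentatricopeptide repeat family, had the lowest value in its subunit at -0.48 (SE 0.33, 95% interval -1.20 to 0.23). Its levels of 12.6 to 36.5 CPM in CD11c+ and 23.1 to 47.0 in CD11c- libraries overlapped, and without CD11c+ replicate 2 the value was -0.27. Leaving out the 3 libraries of lowest gene detection, the Mrps27 value was -0.07. Mrps2, counterpart of a bacterial small subunit protein, had the highest value at 0.33 (SE 0.20, 95% interval -0.09 to 0.76). It was at 46.9, 63.4, 55.8 and 46.6 CPM in CD11c+ and 47.5, 35.3, 42.1 and 44.0 in CD11c- replicates 1 to 4, with CD11c- replicate 1 inside the CD11c+ range.

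The most abundant large subunit members were at similar levels in the subsets. Mrpl18, of the central protuberance, averaged 180 ± 21.2 CPM in CD11c+ and 156 ± 17.6 CPM in CD11c- libraries (SD, n = 4 each), a log2 fold change of 0.20 (95% interval -0.09 to 0.50). Mrpl33 was at 145 ± 36.4 and 137 ± 20.5 CPM (0.07, -0.33 to 0.48), and its sign turned without CD11c+ replicate 3 (-0.08). Mrpl4, which lines the peptide exit tunnel, was at 137 ± 10.5 and 145 ± 8.64 CPM (-0.08, 95% interval -0.35 to 0.19). Mrpl12 is the stalk protein that recruits translation factors and has also been reported to bind the mitochondrial RNA polymerase. It was at 145, 117, 152 and 146 CPM in CD11c+ and 111, 120, 108 and 161 CPM in CD11c- replicates 1 to 4. CD11c- replicate 4 was the highest of the 8, and the fold change of 0.16 (95% interval -0.19 to 0.51) was within the spread.

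Abundant small subunit members also overlapped between the subsets. Mrps24 averaged 163 ± 25.5 CPM in CD11c+ and 152 ± 25.8 CPM in CD11c- libraries (log2 fold change 0.10, 95% interval -0.24 to 0.44, and -0.02 without CD11c+ replicate 3). Mrps16, whose loss causes a mitochondrial disease in humans, was at 86.2, 98.0, 143 and 92.8 CPM in CD11c+ and 122, 114, 127 and 140 CPM in CD11c- replicates 1 to 4. CD11c+ replicate 3 stood above the other 3 and above all CD11c- libraries, and the log2 fold change of -0.26 (95% interval -0.63 to 0.12) became -0.45 without it. The Mrps16 value was -0.18 without CD11c+ replicate 1 and -0.12 leaving out the 3 libraries of lowest gene detection. Mrps14 (103 ± 13.6 and 108 ± 11.3 CPM) and Mrps26 (102 ± 9.49 and 106 ± 17.8 CPM) had log2 fold changes of -0.06 each.

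Mrps18a, Mrps18b and Mrps18c are paralogs of a single bacterial protein, and their proteins occupy different places, the first in the large and the other 2 in the small subunit. Mrps18c was the highest per length at 86.1 CPM per kb ± 10.0, near Mrps18a at 72.4 ± 19.4, and Mrps18b the lowest at 16.1 ± 6.01 (SD, n = 8). The order of the first 2 depended on the lengths, as mean CPM was 64.0 for Mrps18a, 55.0 for Mrps18c and 17.4 for Mrps18b. Mrps18a was at 43.2, 36.0, 73.2 and 70.8 CPM in CD11c+ and 83.7, 69.1, 56.8 and 79.5 CPM in CD11c- replicates 1 to 4. Its low values were CD11c+ replicates 1 and 2, and the log2 fold change of -0.37 (95% interval -0.91 to 0.16) was 0.06 once the 3 libraries of lowest gene detection were left out. Mrps18b (17.2 CPM ± 9.32 and 17.6 ± 3.33) and Mrps18c (55.0 ± 7.54 and 54.9 ± 6.23) had log2 fold changes of -0.03 and 0.00, with intervals of -0.88 to 0.81 and -0.40 to 0.40. Mrps30, also placed in the large subunit, was at 36.8 to 71.1 CPM in CD11c+ and 57.6 to 78.4 CPM in CD11c- libraries (-0.15, 95% interval -0.64 to 0.33).

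By origin, members with a bacterial counterpart (42 tested) and without (32) had medians of -0.07 and -0.06, with 17 and 10 positive values. The 13 tested small subunit members without a bacterial counterpart had 3 positive and 10 negative values and a median of -0.08, where 51.7% of all tested genes were positive. They include Mrps35, Mrps27, Mrps22 (-0.42) and, because their proteins sit away from the place of the bacterial one, Mrps18a and Mrps18b. The members named here are all negative, and the highest value of the set was 0.26. Leaving out the 3 libraries of lowest gene detection, Mrps35 was at -0.32, Mrps27 at -0.07, Mrps18a at 0.063 and Mrps18b at 0.095. By the same edgeR test 0 members of any of these sets passed.

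Other genes of mitochondrial translation gave no call in either direction. Of 8 genes of mitoribosome proteins with other symbols (with Oxa1l, the insertase they dock to), 0 passed, with a median log2 fold change of -0.08 and 2 positive values. Ict1, a large subunit protein that rescues stalled mitoribosomes, was at 137 CPM ± 24.9 and 176 ± 37.2 (log2 fold change -0.36, 95% interval -0.75 to 0.04), and Ptcd3, a small subunit protein, at 43.4 ± 24.3 and 29.9 ± 8.97 (0.54, -0.26 to 1.33). Among 27 assembly and rRNA modification genes 0 passed and 1 had an unadjusted p under 0.05, with a median of -0.05. That gene was Trub2, a mitochondrial pseudouridine synthase, at 16.9 to 33.8 CPM in CD11c+ and 34.5 to 45.1 in CD11c- libraries (-0.68, unadjusted p = 0.0214, adjusted p = 0.99 by edgeR). Mpv17l2 was the next, at -0.30. Among 18 translation factors the median was -0.10 and 0 passed, with Pdf, the peptide deformylase, at -0.38 (29.7 ± 1.02 and 38.6 ± 4.71 CPM) and Qrsl1, a subunit of the enzyme that completes mitochondrial glutaminyl-tRNA, at 0.54. The 17 mitochondrial aminoacyl-tRNA synthetases had a median of -0.19, 0 calls and 6 positive values, with Pars2 at -0.69 (95% interval -1.46 to 0.07) and Iars2 at -0.33 (-0.72 to 0.06).

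Of 9 genes that copy or transcribe mitochondrial DNA 0 passed, with a median of 0.16, Polg2 at -0.55 and Ssbp1 at 0.22. Among 10 tested regulators of mitochondrial biogenesis 0 passed and 1 had an unadjusted p under 0.05, with a median of 0.11 and 7 positive values. That gene was Gabpb2, a partner chain of the ETS factor GABP, at 152 CPM ± 36.0 and 105 ± 4.53 (log2 fold change 0.53, unadjusted p = 0.00958, adjusted p = 0.945 by edgeR). For Gabpb2, CD11c+ replicate 4 at 105 CPM lay inside the CD11c- range of 101 to 111 CPM. Esrra was at -0.94 (95% interval -2.51 to 0.64). Its levels were low, at 4.50 ± 2.98 and 8.67 ± 2.59 CPM, with 0.196 CPM in CD11c+ replicate 1.

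Beside the members, 69 tested cytosolic ribosomal protein genes had a median of -0.13 with 16 positive, 74 nuclear oxidative phosphorylation genes a median of -0.07 with 18 positive, and 19 import genes a median of 0.03 with 12 positive, again with 0 calls by edgeR, DESeq2 or limma voom. By edgeR the numbers with an unadjusted p under 0.05 were 0, 1 and 1. Among the genes of lowest p were Rps14 (-0.29) of the cytosolic ribosome, Ndufa10 (0.24) of respiratory complex I, and Tomm34 (-0.30, unadjusted p = 0.0375, adjusted p = 0.991 by edgeR) and Timm9 (0.69), an import chaperone of the space between the mitochondrial membranes. Per library, the oxidative phosphorylation score was lowest in CD11c+ replicate 2 (7.11) and highest in CD11c- replicate 4 (7.48), and the cytosolic ribosomal score lowest in CD11c+ replicate 1 (5.30) and highest in CD11c+ replicate 3 (5.65). The 12 genes of cycling cells had a score of 8.16 to 8.31 in CD11c+ and 7.96 to 8.11 in CD11c- libraries, so this score separated the subsets while that of the members did not. The list was chosen with earlier results of these data known, and the separation was not checked with libraries left out. All 12 genes had a positive log2 fold change, with a median of 0.15, where 51.7% of all tested genes were positive. Of the 12, 0 passed and 4 had an unadjusted p under 0.05, against 4.7% of all tested genes, led by Mki67, the gene of Ki-67 (549 CPM ± 74.4 and 409 ± 21.8), and Top2a (934 ± 113 and 741 ± 91.4).

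**Figure D5:**
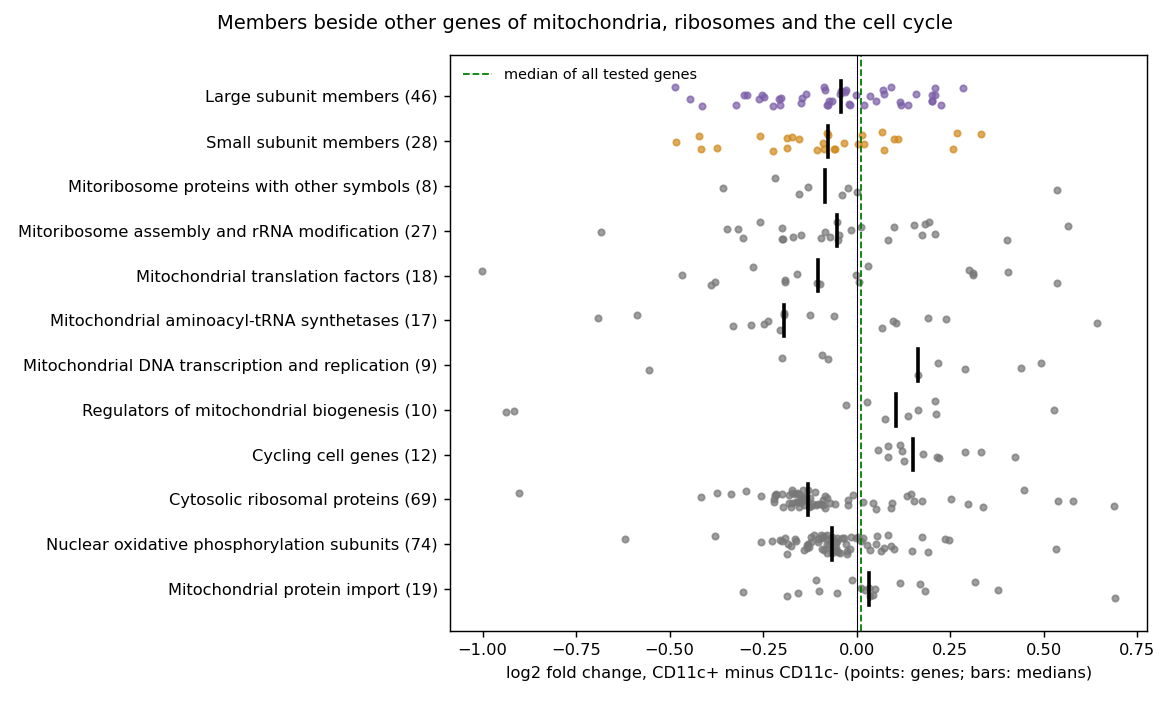
Log2 fold change of every tested gene in the members' subunits and in 10 other lists (points are genes, black bars medians, the dashed line is the median of all tested genes). Member values lie between -0.48 and 0.33, around medians of -0.04 (large) and -0.08 (small).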

How the data were processed

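Per the submitters' processing notes, reads were handled with bcl2fastq, TopHat2 2.0.8b and HTSeq on the mouse build mm9; the sources used here do not give the annotation or the strand setting. Per the labels' protocols, RNA was amplified by a modified SMART-seq2 protocol and read as 50 bp single reads. The authors deposited, for each library, a table of raw counts by gene symbol. The 5 summary rows were left out of library sizes and tests (63.1% to 67.1% of uniquely placed reads fell in no gene, and the row of multiply aligned reads, which were not assigned, held 50.3% to 53.6% of each table's sum).

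The whole table was fitted in R 4.3.3 by edgeR 4.0.16 (genes kept by filterByExpr, TMM factors, glmQLFit and glmQLFTest), comparing CD11c+ against CD11c- libraries, and p-values were adjusted by Benjamini-Hochberg over 10073 genes at a threshold of 0.05. SE is the fold change over the root of F, and 95% intervals use the test's degrees of freedom. Scores used a prior count of 2. Libraries of a subset differed by at least 9.43 chi-square per degree of freedom, more than repeat reads of 1 library would, and each was counted as 1 sample. This value cannot show whether libraries came from separate mice, as separate amplifications of the same cells could also differ. Alternatives used DESeq2 1.42.0, limma 3.58.1 (voom with library quality weights), other scalings and filters, a replicate block and left-out libraries. The scripts were tested on simulated counts.

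The members and lists were chosen with earlier results of these data known. Members named were those of adjusted p under 0.05, those of lowest unadjusted p under 0.05, the 4 most abundant per subunit, the highest and lowest fold change per subunit, Mrps18a, Mrps18b, Mrps18c, Mrps30, Mrps36 and Mrpl12, all members under the filter, and 2 genes of lowest p per companion list, of which 2 genes are not reported here. Mrpl22, Mrpl36, Mrpl37, Mrpl40, Mrpl41, Mrpl44, Mrpl47, Mrpl48, Mrpl52, Mrpl54, Mrps22, Mrps31 and Mrpl1 were named after their values were seen. Of the companion lists, 1 assembly gene, 1 translation factor and 1 mitochondrial DNA gene did not match the files.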

Additional observations from a re-analysis of the deposited data

Results flagged for a closer look

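In each subset, every named member and the scores were checked for a library set apart from the other 3, in 48 groups of 4 values. Mrpl18 in CD11c+ replicate 3 was at 211 CPM, where the other 3 CD11c+ libraries lay between 167 and 171. Mrps30 in CD11c- replicate 4 was at 78.4 CPM, where the other 3 CD11c- libraries lay between 57.6 and 60.4. The gap to the nearest library was 0.916 and 0.865 of the group's range, past Dixon's 95% critical value for 4 values, which chance passes in about 1 in 20 groups.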

How the results depend on the processing

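In every alternative tried, including RLE factors, library size only, no filter, at least 5 CPM in 4 libraries, DESeq2, limma voom, edgeR with legacy=FALSE, thresholds of 0.1 and 0.01 and each library left out, 0 members and 0 companion genes passed. The count of members with an unadjusted p under 0.05 ran from 0 to 2 with 1 library left out and was 0 leaving out the 3 libraries of lowest gene detection, a setting chosen after seeing the data that leaves 2 CD11c+ and 3 CD11c- libraries. That setting also gave 44 positive values, a median of 0.02 and a score difference of 0.04, and the cause was not tested. Limma voom, run with quality weights that count variable libraries less, gave a median of -0.005 with 36 of 74 members positive. With 1 library left out the median ran from -0.12 to -0.02, the score difference from -0.13 to -0.02 and large minus small from -0.01 to 0.03.

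Of 289 values of named members under alternatives, 267 kept their direction, 22 turned it and 0 came past the threshold, and the cause of the turns was not tested. Without the 3 libraries the values were 0.012 for Mrpl11, 0.14 for Mrps14, 0.063 for Mrps18a and 0.095 for Mrps18b. With limma voom they were 0.034 for Mrps14, 0.20 for Mrps18b and -0.042 for Mrps18c. Mrps18c, at 0.00, was also negative with RLE factors (-0.00056), no filter (-0.012), the stricter filter (-0.00069), DESeq2 (-0.00048) and the replicate block (-0.00071). With 1 library left out, ranges that crossed 0 were -0.084 to 0.19 for Mrpl33, -0.14 to 0.0022 for Mrps14, -0.43 to 0.18 for Mrps18b, -0.10 to 0.050 for Mrps18c, -0.017 to 0.20 for Mrps24 and -0.14 to 0.040 for Mrps26.

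The labels number libraries 1 to 4 in each subset without saying what a number shares. Deviations of same-numbered libraries correlated over tested genes at 0.0964, 0.167, 0.119 and 0.190, and each library correlated best with its own number, a hint from the data only. With the replicate block 0 members passed, 1 had an unadjusted p under 0.05, the median was -0.06, and 13 of all tested genes passed in place of 5.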
